A study of Mus musculus with 4 samples.

Results

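The genes described here were 10 that encode the core of the NF-kB pathway in the mouse: the 5 subunits of the Rel family (Nfkb1, Nfkb2, Rela, Relb and Rel), 3 IkB inhibitors (Nfkbia, Nfkbib and Nfkbie) and the 2 catalytic kinases of the IKK complex (Chuk and Ikbkb). They were picked by gene symbol from the deposited expression tables, which list 23420 genes. All 10 were found, and all 10 were among the 16088 genes with enough reads to be tested. The samples came from Atoh1-GFP transgenic mice on a CD-1 background, in which an enhancer of Atoh1, a transcription factor gene of the hair cell lineage, drives GFP. Cochleae of postnatal day 1 animals were cultured overnight and either left untreated or given 0.5 mM gentamicin, an aminoglycoside antibiotic that kills hair cells, for 3 h. The cells were then dissociated and sorted by fluorescence into GFP-positive hair cells (HC) and GFP-negative non-hair cells (NHC), and polyadenylated RNA was sequenced in 3 replicates of each of the 4 groups: HC control, HC gentamicin, NHC control and NHC gentamicin. All groups carried the transgene, and the non-hair cells were a mixture of supporting cells, other cochlear epithelial cells and surrounding tissue, so a change in that group cannot be assigned to 1 cell type.

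NF-kB transcription factors are dimers of Rel family proteins. In resting cells IkB proteins bind the dimers and keep most of them in the cytoplasm, and the IKK complex phosphorylates IkB proteins when cytokine or pattern recognition receptors signal, which marks the inhibitors for destruction and frees the dimers to enter the nucleus. Nfkb1 and Nfkb2 are made as long precursors whose C-terminal parts also act as inhibitors, and several genes of the pathway, Nfkbia among them, are transcribed in response to NF-kB itself and so form a feedback loop. Much of the control is on protein stability and location, which mRNA levels do not show.

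The genes are spread over several chromosomes of mm10 (GENCODE M21 annotation). The subunit genes are Nfkb1 at chr3:135584655-135691547 (minus strand), Nfkb2 at chr19:46304320-46312385 (plus strand), Rela at chr19:5637483-5648130 (plus strand), Relb at chr7:19606217-19629438 (minus strand) and Rel at chr11:23736847-23770970 (minus strand). The inhibitor genes are Nfkbia at chr12:55489410-55492647 (minus strand), Nfkbib at chr7:28758251-28767512 (minus strand) and Nfkbie at chr17:45555703-45563169 (plus strand). The kinase genes are Chuk at chr19:44073335-44107480 (minus strand) and Ikbkb at chr8:22659212-22706589 (minus strand). Reads were counted over the whole gene, so no exon or isoform is told apart.

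Promoter windows from RefSeq, around annotated transcription starts on GRCm38.p6, were used for 7 of the 10 genes, and those of Nfkb1, Relb and Ikbkb were not analysed here. The 5 windows shown are those of the genes, other than Nfkb1, whose mRNA met the criteria for a change with gentamicin in either population, printed as the 250 bases before the start, 5′ to 3′ on the gene's strand, with matches to the kB consensus site on either strand in capitals. They lie at chr19:46304487-46304736 on the plus strand for Nfkb2 (the most upstream of its 3 starts), and on the minus strand at chr11:23770970-23771219 for Rel, chr12:55492648-55492897 for Nfkbia, chr7:28766645-28766894 for Nfkbib and chr19:44107478-44107727 for Chuk.
Nfkb2: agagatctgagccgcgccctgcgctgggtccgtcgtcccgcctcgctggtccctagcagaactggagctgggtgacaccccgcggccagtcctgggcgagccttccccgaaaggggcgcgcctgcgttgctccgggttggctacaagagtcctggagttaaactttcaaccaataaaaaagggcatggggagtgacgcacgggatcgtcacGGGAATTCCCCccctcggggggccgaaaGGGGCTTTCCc
Rel: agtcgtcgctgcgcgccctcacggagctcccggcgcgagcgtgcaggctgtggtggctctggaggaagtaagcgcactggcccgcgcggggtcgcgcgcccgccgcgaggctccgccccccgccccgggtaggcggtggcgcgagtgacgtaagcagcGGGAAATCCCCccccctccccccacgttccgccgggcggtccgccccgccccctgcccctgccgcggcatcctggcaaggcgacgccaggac
Nfkbia: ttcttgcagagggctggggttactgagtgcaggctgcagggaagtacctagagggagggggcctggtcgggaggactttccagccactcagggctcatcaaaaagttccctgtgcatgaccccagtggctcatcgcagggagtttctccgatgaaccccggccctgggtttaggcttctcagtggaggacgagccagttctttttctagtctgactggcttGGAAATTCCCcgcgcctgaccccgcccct
Nfkbib: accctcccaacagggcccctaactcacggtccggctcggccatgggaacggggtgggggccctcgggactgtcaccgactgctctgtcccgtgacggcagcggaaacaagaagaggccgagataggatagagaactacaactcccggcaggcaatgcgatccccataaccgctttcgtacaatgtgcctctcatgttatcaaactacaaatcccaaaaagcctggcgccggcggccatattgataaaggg
Chuk: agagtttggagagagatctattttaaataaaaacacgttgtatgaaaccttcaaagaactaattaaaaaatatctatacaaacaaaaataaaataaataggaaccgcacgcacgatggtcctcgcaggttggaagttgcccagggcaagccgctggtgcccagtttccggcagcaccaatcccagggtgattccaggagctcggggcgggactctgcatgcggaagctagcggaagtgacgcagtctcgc
The Nfkb2 window held 3 matches, at 39, 38 and 11 bases before the start, of which the first pair overlap. The Rel window held 2 overlapping matches, at 92 and 91 bases, and the Nfkbia window held 1, at 29 bases. Nfkbib and Chuk had no match in these letters, nor did Rela, while Nfkbie had 1. Over the 250 bases before the start in all 32851 windows of the table, 7.25% held at least 1 match. The matches describe the sequence and were not tested for binding.

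Expression was read as the deposited normalized read number, which holds an offset of 1, so that a gene without reads is listed at 1. The values imply 22400677 to 28152284 reads on genes per replicate. The sort was visible in the marker genes: the summed level of 10 hair cell markers was 13100 to 13400 in HC control, 10800 to 12200 in HC gentamicin and 236 to 324 in the non-hair cells. Genes listed as markers of other cell types were also read in the hair cells. The summed markers of mesenchymal, supporting, Schwann and endothelial cells were lower in treated hair cells. The 10 mesenchymal markers summed to 545 to 810 in HC control and 372 to 456 in HC gentamicin against 6180 to 10500 in non-hair cells. The 10 supporting cell markers summed to 1780 to 2060 and 903 to 1500 in the same hair cell groups, against 1150 to 1900 in non-hair cells. The 10 Schwann cell markers summed to 274 to 326 and 135 to 240, against 605 to 866, and the 10 endothelial markers to 41 to 60.6 and 30.2 to 40.9, against 400 to 414 in NHC control and 497 to 610 in NHC gentamicin. The 12 macrophage markers summed to 109 to 124 and 88.1 to 94.6, against 56.5 to 102, but in hair cells the sum was mostly Laptm5, at 110 ± 7.37 and 74.0 ± 4.08 there, and higher in HC control than in NHC control (log2 difference 3.29). Of the 12, 1 was called in hair cells, Cd68, which rose from 2.43 ± 0.365 to 14.1 ± 3.50 (log2 2.52 ± 0.22, adjusted p = 3.81e-05 by limma), and the median change was 0.04. The supporting cell list did not separate the sorted populations: 2 markers were higher in HC control than in NHC control, 2 lower, and 6 did not pass. S100a1 was at 310 against 82.3 and Jag1 at 473 against 252. Hey2 alone of that list was higher after gentamicin in hair cells (19.3 to 24.9). Of the mesenchymal markers, Pdgfra was at 277 against 341 and did not pass. These sums need not come from other cells alone. The 5 red blood cell markers in the tables summed to at most 7.65 in the hair cell replicates. The part these cells had in the results was not tested. Fewer cells of a type and less RNA per cell cannot be told apart in such bulk samples.

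To compare genes with each other, the read number less its offset was divided by the length of the annotated transcript with the longest coding sequence. The methods of the study describe a score that already takes gene length into account, whereas most low values fitted whole reads times 1 factor per replicate. Levels per kb hold only if the deposited values carry no length term. On this scale Nfkbia, the feedback inhibitor, was the most abundant of the 10 in every group, at 45.3 ± 1.38 per kb (SD, n = 3) in HC control and 77.6 ± 8.67 in NHC control. Rela, the subunit with the main transactivation domain, was the most abundant subunit in every group, at 21.4 ± 0.867 and 32.5 ± 2.60 per kb in the same groups. Rel was the least abundant of the 10 throughout, at 0.190 ± 0.0292 and 0.612 ± 0.0903 per kb. Chuk (IKK alpha) ranked second in HC control at 26.4 ± 1.86 per kb and seventh in NHC control at 13.6 ± 0.396, whereas Ikbkb (IKK beta) stood at 18.9 ± 0.418 and 18.6 ± 0.285. The order depends on the length used: per kb of the union of all annotated exons Chuk had rank 3 of the 10 in HC control and rank 4 in NHC control, and Ikbkb ranks 7 and 9, while Nfkbia stayed highest, Rela the highest subunit and Rel lowest.

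**Figure D1:**
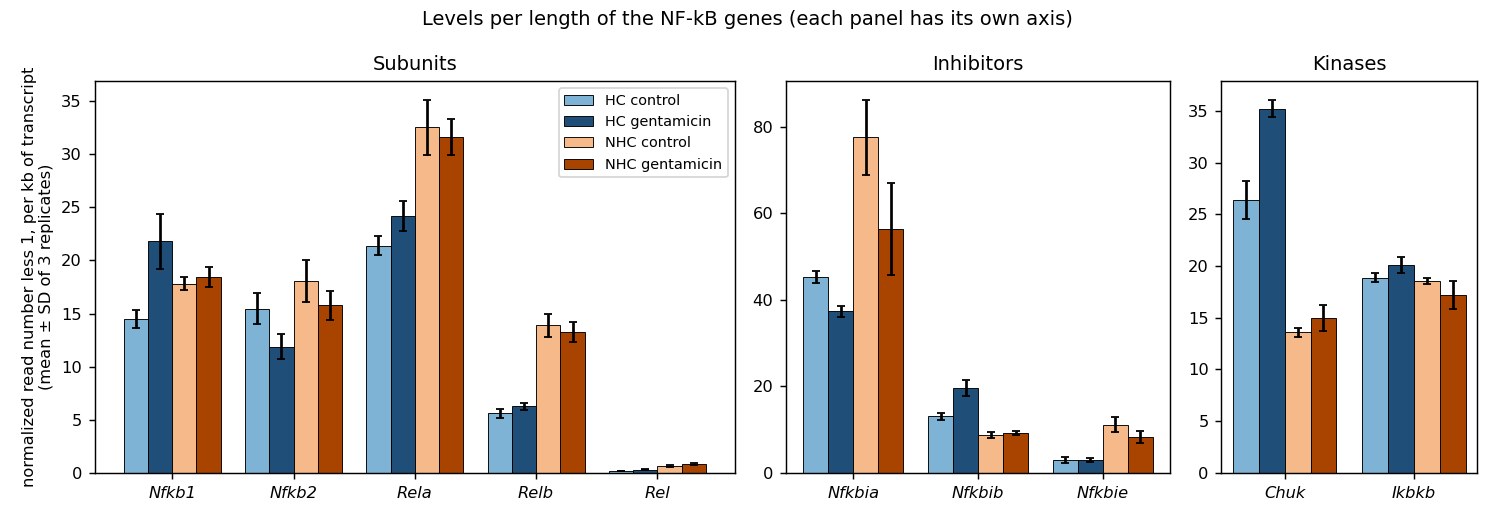
Normalized read number less its offset of 1, per kb of the transcript with the longest coding sequence, for the 5 subunits, 3 inhibitors and 2 kinases; bars are means of 3 replicates and whiskers are SD. Nfkbia stood highest in all 4 groups and Rel lowest, and the kinase that led was Chuk in hair cells and Ikbkb in non-hair cells.

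The untreated populations differed in most of these genes. Of the 10, 2 were higher and 6 lower in HC control than in NHC control at an adjusted p below 0.05 (limma on log2 values, Benjamini-Hochberg), against 74.0% of all genes tested (31.9% higher and 42.1% lower), so the share was near the background. The median log2 difference of the 10 was -0.44, and that of all genes was -0.12. With TMM scaling the median of all genes moved from -0.1225 to -0.015, and every difference between the populations shifted up with it. Lower in hair cells were Rela (59.1 ± 2.36 against 89.3 ± 7.07, log2 difference -0.59 ± 0.07 SE, adjusted p = 1.86e-05 by limma), Relb (-1.24 ± 0.10), Rel (-1.20 ± 0.13), Nfkbia (-0.76 ± 0.12) and Nfkbie (-1.75 ± 0.18). Nfkbie, an inhibitor that binds mainly Rela and Rel dimers, had the largest of these differences, at 8.16 ± 1.57 against 27.3 ± 4.10. Nfkb1 was also lower (-0.29 ± 0.09, adjusted p = 0.00882 by limma), but the difference was -0.17 with an adjusted p of 0.0905 after TMM scaling. Nfkb2 was at 49.6 ± 4.66 and 57.7 ± 6.17 and did not pass (-0.22 ± 0.11, adjusted p = 0.0854 by limma).

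Higher in hair cells were Chuk (93.4 ± 6.51 against 48.6 ± 1.39, log2 difference 0.94 ± 0.07, adjusted p = 3.32e-07 by limma) and Nfkbib (28.1 ± 1.67 against 19.0 ± 1.5, 0.57 ± 0.10, adjusted p = 0.00023 by limma). Nfkbib encodes IkB beta, an inhibitor that is degraded more slowly than IkB alpha. The Ikbkb level did not differ beyond its spread, at 68.6 ± 1.5 and 67.4 ± 1.02 (0.03 ± 0.06), and its sign turned under scaling by total reads. Per kb, the ratio of Chuk to Ikbkb in single replicates was 1.32 to 1.46 in HC control and 0.723 to 0.745 in NHC control. The groups did not overlap, and the exact two-sided permutation test of the ratio gave p = 0.1, the smallest that 3 against 3 allows. Dividing by the union of all annotated exons in place of 1 transcript put Chuk above Ikbkb in both populations (5.12 and 2.69), so which kinase leads in non-hair cells depends on the length used.

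The effect of gentamicin in hair cells was asked first of the subunits. Nfkb1 rose, Nfkb2 fell and Rel rose, while Rela and Relb did not meet the criteria of the study, an unadjusted p below 0.01 and a fold change above 1.2. Nfkb1 encodes the precursor of the smaller subunit of the classical dimer. Its values were 57.5, 60.0 and 64.5 in HC control and 80.1, 101 and 90.7 in HC gentamicin. All 3 treated replicates were above all 3 controls, a rise of 1.49-fold (log2 0.57 ± 0.09, adjusted p = 0.000653 by limma).

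Nfkb2 encodes the precursor that is processed in the alternative pathway downstream of Map3k14 and Chuk. It was at 44.4, 53.4 and 51.0 in HC control and at 36.1, 42.5 and 36.1 in HC gentamicin. The treated replicates were the lower ones without overlap, with a fold of 0.772 (log2 -0.37 ± 0.11, adjusted p = 0.021 by limma). The call was kept in 2 of 6 fits with 1 hair cell replicate left out, being lost without HC control 2 or 3 or HC gentamicin 1 or 3 (-0.35 to -0.32), and it was lost with scaling by total reads (-0.28). Exons of Nfkb2 share 299 bases with Psd and 531 with the non-coding gene AC114539.1, both on the opposite strand. AC114539.1 is not among the genes listed, and the counting is not stated to use strand. Psd was at 13.5 to 19.6 in HC control and 11.05 to 14.3 in HC gentamicin (-0.50 ± 0.31, adjusted p = 0.243 by limma), and its part in the Nfkb2 value was not tested.

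Rel encodes a subunit best known from lymphocytes. Its values were 2.35, 2.24 and 2.66 in HC control and 3.19, 3.18 and 3.50 in HC gentamicin. The 3 control replicates together held 96 reads. The treated values were all above the controls (log2 0.45 ± 0.13, adjusted p = 0.0212 by limma), but the call was kept in only 1 of 6 fits with a replicate left out, that without HC control 3, and was lost in the other five (0.39 to 0.47). With voom weights, which do not use the offset of 1, the change was 0.70 and did not pass the criteria. Rela stood at 59.1, 61.5 and 56.8 in HC control and 63.0, 70.6 and 66.2 in HC gentamicin, without overlap. Rela missed both the fold and the p required (1.13-fold, unadjusted p = 0.0411, adjusted p = 0.0978 by limma). It met the criteria with scaling by total reads (log2 0.27). Relb, the partner of the processed Nfkb2 product, was at 12.2 to 13.96 and 14.3 to 15.7 (log2 0.15 ± 0.10).

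**Figure D2:**
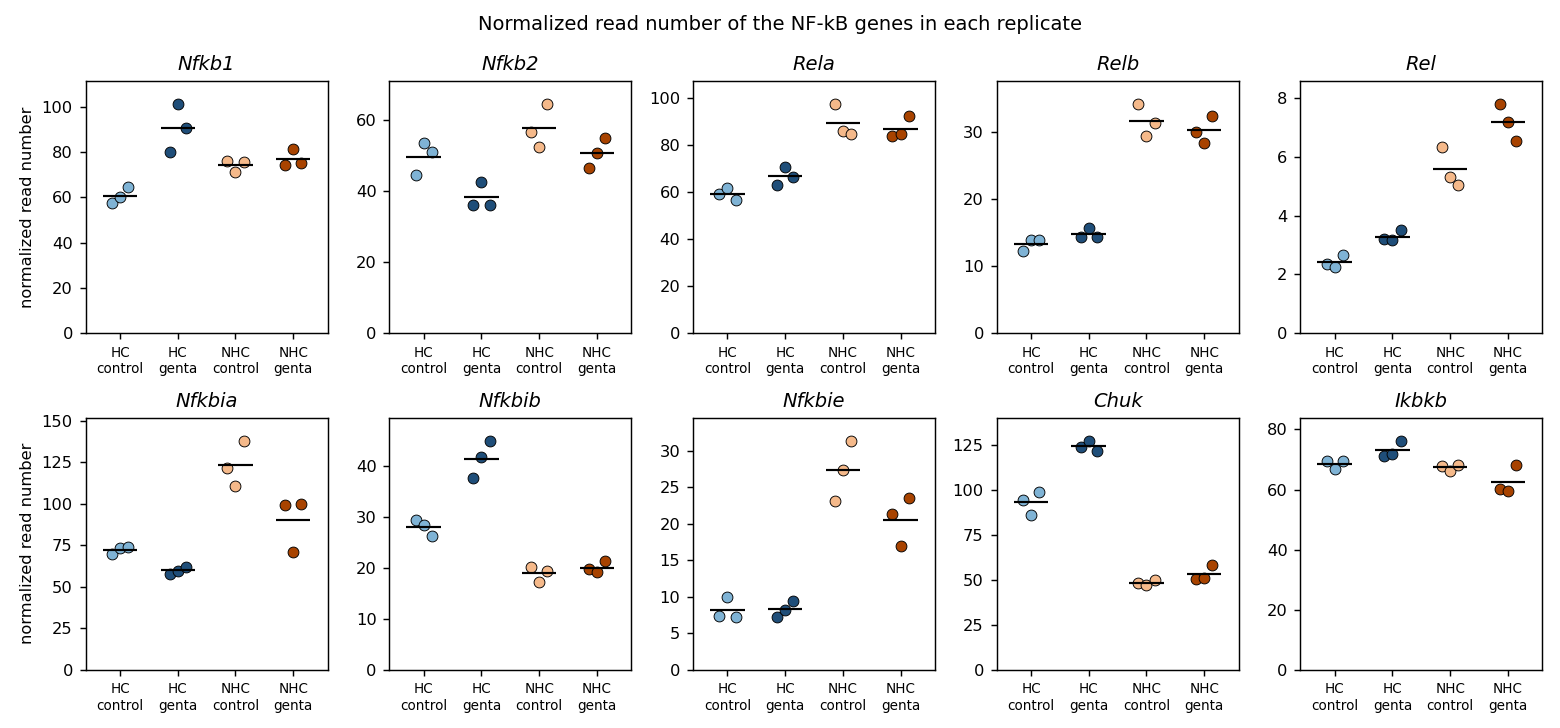
Normalized read number (offset of 1 included) of each gene in each of the 12 replicates, with the mean of each group as a line and 1 panel with its own axis per gene; genta is gentamicin. In hair cells 7 genes, Nfkb1, Nfkbib and Chuk among them, lay higher in all 3 treated replicates than in any control. Nfkb2 and Nfkbia lay lower there, where 21.7% and 33.1% of all genes lay higher and lower. In non-hair cells Rel and Chuk lay higher and Nfkbia lower, where 10.1% and 7.68% of all genes did so.

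Among the inhibitors in hair cells, Nfkbib rose and the other two did not meet the criteria. Nfkbib was at 29.5, 28.5 and 26.3 in HC control and 37.7, 41.9 and 45.1 in HC gentamicin. The groups were well apart, at 1.48-fold (log2 0.56 ± 0.10, adjusted p = 0.00147 by limma), and the call was kept in all 6 fits with a replicate left out. Its exons share 42 bases with Sirt2 on the opposite strand, and Sirt2 was at 65.6 to 67.3 in HC control and 65.0 to 68.9 in HC gentamicin (0.02 ± 0.05). They also share 314 bases with Ccer2 on the opposite strand, which is not among the genes listed. The part of Ccer2 in the Nfkbib value was not tested. Nfkbia, the classical feedback target, was at 69.9, 73.6 and 73.7 in HC control and 57.9, 59.8 and 62.1 in HC gentamicin. These values did not overlap, yet the change of -0.27 ± 0.12 had an adjusted p of 0.111 by limma with the 4 groups fitted together, and met the criteria when the hair cell groups were fitted alone (adjusted p = 0.00916 by limma). Nfkbie was at 7.34, 9.98 and 7.17 before and 7.22, 8.11 and 9.45 after gentamicin (0.03 ± 0.18), and the groups overlapped.

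Of the kinases, Chuk rose and Ikbkb did not meet the criteria. Chuk was at 94.6, 86.3 and 99.1 in HC control and 124, 128 and 122 in HC gentamicin. The rise of 1.33-fold (log2 0.42 ± 0.07, adjusted p = 0.0017 by limma) was called in all 6 fits with a replicate left out. Ikbkb was at 69.3, 66.9 and 69.6 in HC control and 71.0, 72.0 and 76.3 in HC gentamicin, apart but by only 1.06-fold (adjusted p = 0.305 by limma).

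In all, 4 of the 10 genes rose and 1 fell in hair cells. Over all genes tested, 27.5% met the criteria, 12.7% upwards and 14.8% downwards. The groups did not overlap for 7 genes upwards and 2 downwards, where 21.7% and 33.1% of all genes did so. The median log2 change was 0.16 for the 10 genes and -0.09 for all genes. The split depended on the scaling: by total reads 5 of the 10 rose and none fell, as Nfkb2 was lost and Rela gained, and of all calls 63.6% were upwards in place of 46.1%. In that alternative Nfkb1, Nfkbib, Chuk and Rel kept their direction and call.

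**Figure D3:**
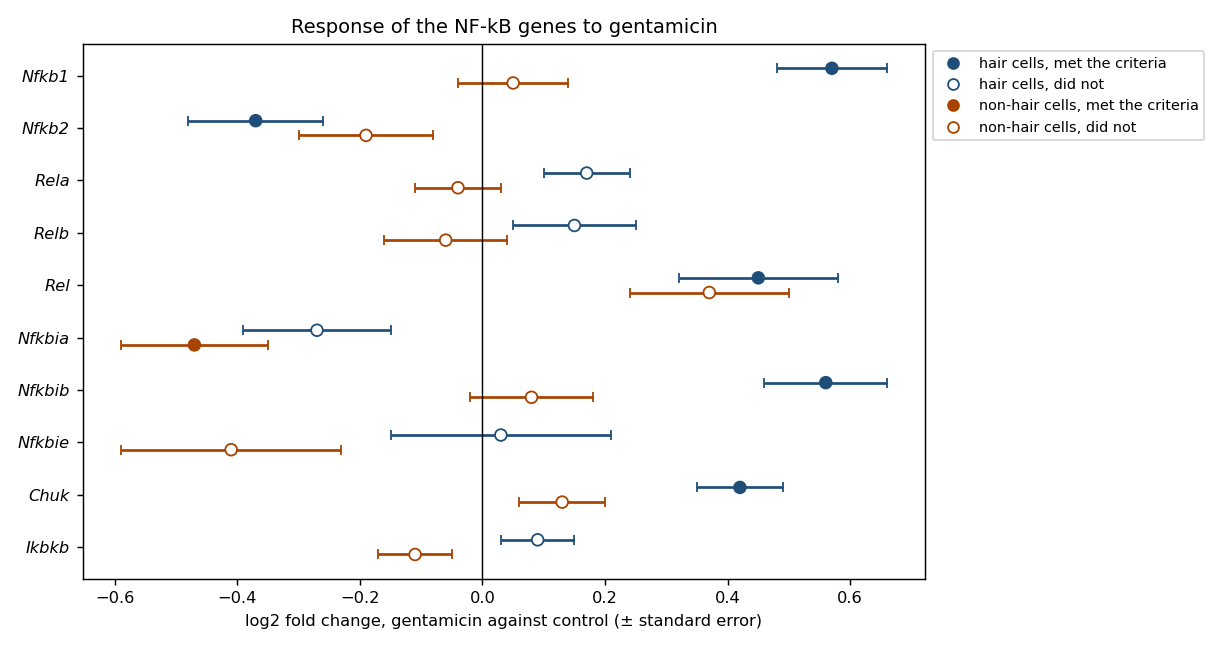
Log2 fold change (gentamicin against control, horizontal axis) of each gene in hair cells and non-hair cells, with the standard error from limma as whiskers; filled points met the criteria of an unadjusted p below 0.01 and a fold above 1.2. In hair cells Nfkb1, Rel, Nfkbib and Chuk were filled above 0 and Nfkb2 below, and in non-hair cells Nfkbia alone was filled, below 0.

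In non-hair cells, Nfkbia was the one member that met the criteria, and it fell. Its values were 121, 111 and 138 in NHC control and 99.4, 70.8 and 100 in NHC gentamicin. The replicates did not overlap, and the change was 0.723-fold (log2 -0.47 ± 0.12, unadjusted p = 0.00294, adjusted p = 0.11 by limma). The call was lost without NHC control 3 (-0.38), with the non-hair cell groups fitted alone and with the adjusted p as the threshold. The 10 endothelial markers summed to more in the same treated replicates (497 to 610, against 400 to 414 in NHC control), with 2 of the 10 called, Cldn5 (31.6 ± 5.34 to 70.0 ± 20.6) and Egfl7 (35.3 ± 5.74 to 91.6 ± 8.83). The others were not called: Pecam1 (43.8 ± 12.1 to 36.2 ± 9.8) and Vwf (6.65 ± 2.69 to 6.3 ± 4.11) were lower, and the rest had log2 changes of 0.22 to 0.43. The part of endothelial cells in the falls seen in non-hair cells was not tested. At an adjusted p below 0.05 by limma none of the 10 was called, against 0.342% of all genes, and at an unadjusted p below 0.05 there were 3 of the 10: Rel upwards and Nfkbia and Nfkbie downwards. The share of all genes at that unadjusted threshold is not given here, so this count has no background. By the criteria of the study 5.45% of all genes were called, 2.26% downwards, and groups did not overlap for 10.1% of all genes upwards and 7.68% downwards, and for Rel and Chuk upwards and Nfkbia downwards among the 10.

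Rel was at 6.33, 5.32 and 5.05 in NHC control and 7.80, 7.19 and 6.55 in NHC gentamicin. All treated values lay above the controls, with a log2 change of 0.37 ± 0.13 and an adjusted p of 0.185 by limma. It met the criteria with scaling by total reads (0.39) and without NHC control 1 (0.47). Nfkbie was at 23.1, 27.3 and 31.3 in NHC control and 21.3, 16.9 and 23.5 in NHC gentamicin, with overlap (-0.41 ± 0.18, adjusted p = 0.275 by limma). The other seven differed by log2 values of -0.19 to 0.13. Nfkb1 was at 71.3 to 76.1 in NHC control and 74.5 to 81.5 in NHC gentamicin, and Nfkbib at 17.3 to 20.2 and 19.2 to 21.4. Chuk was at 47.2 to 49.96 and 50.5 to 58.4, apart in the same direction as in hair cells but at 1.1-fold (adjusted p = 0.383 by limma).

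Whether the populations responded differently was tested by the interaction of population and treatment. Of the 10, 2 passed at an adjusted p below 0.05, Nfkb1 and Nfkbib, both with the greater rise in hair cells, against 13.4% of all genes in either direction and 6.85% in this one. For Nfkb1 the response in hair cells exceeded that in non-hair cells by 0.52 ± 0.12 on the log2 scale (adjusted p = 0.0183 by limma), and all 12 fits with a replicate left out kept the call. For Nfkbib the excess was 0.48 ± 0.14 (adjusted p = 0.0407 by limma), kept in 3 of 12 such fits, those without HC gentamicin 1, NHC control 2 or NHC gentamicin 3. It was lost with TMM scaling, with voom weights and with the replicate number as a block, where the adjusted p was 0.0545, 0.0521 and 0.0523 by limma.

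For Chuk the excess was 0.28 ± 0.10 (adjusted p = 0.091 by limma), which passed with scaling by total reads (0.36) and without NHC gentamicin 3 (0.35). The remaining differences did not pass: 0.20 ± 0.09 for Ikbkb, 0.21 ± 0.11 for Rela, 0.21 ± 0.14 for Relb, 0.19 ± 0.18 for Nfkbia, 0.44 ± 0.25 for Nfkbie, 0.08 ± 0.18 for Rel and -0.19 ± 0.15 for Nfkb2. The fall of Nfkbia in non-hair cells and its value in hair cells were thus not shown to differ. The same holds for Rel and for Nfkb2, which met the criteria in hair cells only.

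The balance between members was read as a ratio per kb within each replicate. Nfkb1 to Nfkb2 was 0.859 to 0.994 in HC control and 1.72 to 1.95 in HC gentamicin, a log2 difference of 0.97. The same ratio in non-hair cells was 0.898 to 1.05 and 1.05 to 1.24, a difference of 0.24. Nfkb1 made up 25.4% ± 1.23 (SD, n = 3) of the summed level per kb of the 5 subunits in HC control and 33.8% ± 1.37 in HC gentamicin, Nfkb2 27.0% ± 1.37 and 18.4% ± 0.659, and Rela 37.5% ± 2.02 and 37.6% ± 0.963. With the exon union as the length Nfkb1 to Nfkb2 was 0.469 and 0.915 in the hair cell groups, so that Nfkb1 did not pass Nfkb2, and the share of Nfkb1 was 13.1% ± 0.769 and 18.2% ± 0.899.

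Nfkbib to Nfkbia was higher in every treated hair cell replicate than in every control, at 0.266 to 0.317 in HC control and 0.494 to 0.553 in HC gentamicin, and in non-hair cells was 0.103 to 0.122 and 0.146 to 0.200. The sum of the 3 inhibitors per kb was 60.2 to 63.2 in HC control and 56.5 to 63.7 in HC gentamicin, ranges that overlap, while the share of Nfkbib went from 21.4% ± 1.46 to 32.7% ± 1.07. In non-hair cells the sum was 88.8 to 109 and 59.8 to 82.2. Nfkbia to Rela was 2.04 to 2.25 and 1.45 to 1.61 in hair cells, and 2.15 to 2.83 and 1.44 to 2.04 in non-hair cells. Chuk to Ikbkb was 1.64 to 1.82 in HC gentamicin and 0.856 to 0.874 in NHC gentamicin, above the controls of the same population. Of the 7 ratios computed, these 4 gave p = 0.1 in both populations by the exact two-sided permutation test, the smallest p that 3 against 3 allows, so that none could pass 0.05. Nfkb1 to Rela gave 0.1 in hair cells and 0.5 in non-hair cells, Nfkbie to Nfkbia 0.3 and 0.8, and Relb to Rela 0.9 and 0.6 by the same exact test. A log2 difference between groups does not depend on the transcript length.

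Other kinases of the pathway were called in both directions in hair cells. Of 15 further genes of the IKK complex and of kinases upstream of it, 4 rose and 3 fell (5 and 2 with scaling by total reads), with a median log2 change of 0.05. The shares of all genes tested, against which this and the following lists stand, were 12.7% upwards and 14.8% downwards in hair cells and 5.45% in either direction in non-hair cells. No such share is given for an unadjusted p below 0.05, so counts at that threshold have no background. Map3k14 (NIK), which activates Chuk in the alternative pathway, was at 8.60, 10.4 and 8.83 in HC control and 17.5, 20.0 and 19.0 in HC gentamicin. That rise (log2 1.02 ± 0.16, adjusted p = 0.000793 by limma) was without overlap, and it differed from the value of -0.09 ± 0.16 in non-hair cells (difference 1.11, adjusted p = 0.0103 by limma). Map3k3 (MEKK3), a kinase upstream of IKK, fell from 24.8 ± 1.12 to 13.9 ± 1.95 (-0.85 ± 0.12), also differing from non-hair cells (adjusted p = 0.00851 by limma). Irak2, of the IRAK family in interleukin 1 and Toll-like receptor signalling, rose from 43.7 ± 1.43 to 62.2 ± 3.83. Its relative Irak4 fell from 10.7 ± 0.949 to 7.78 ± 0.653. Of the adaptors of the TAK1 kinase, Tab3 rose (0.51 ± 0.10) and Tab1 fell (-0.31 ± 0.09), the latter in only 1 of 6 fits with a replicate left out, that without HC gentamicin 3. The Irak4 call was lost without HC control 1. Ikbkg, the scaffold of the IKK complex, was at 56.0 ± 3.12 and 48.9 ± 0.124 and did not meet the fold (-0.19 ± 0.06, adjusted p = 0.0279 by limma). In non-hair cells 0 of the 15 were called by limma, and 4 had an unadjusted p below 0.05.

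Of 25 adaptors and ubiquitin enzymes that link receptors to IKK, 8 rose and 3 fell in hair cells, 72.7% of the calls being upwards (90.0% with scaling by total reads), and the median was 0.05. Fbxw11, one of the F-box proteins that recognise phosphorylated IkB, rose from 166 ± 4.16 to 236 ± 19.7 (0.51 ± 0.07). Malt1, the paracaspase that joins antigen receptors to IKK, rose from 41.6 ± 0.977 to 58.5 ± 1.2 (0.49 ± 0.07). Traf2, an adaptor of TNF receptors, rose from 23.6 ± 0.816 to 32.4 ± 2.40 (0.46 ± 0.09). Ube2v1, a partner in the synthesis of lysine-linked ubiquitin chains, fell from 239 ± 10.6 to 182 ± 6.21, Rbck1 of the linear ubiquitin complex from 137 ± 2.21 to 112 ± 2.90, and Traf3, which keeps Map3k14 protein low in resting cells, from 140 ± 6.10 to 115 ± 7.49 (-0.28 ± 0.07). The calls of Rbck1 and Traf3 were lost with scaling by total reads, and that of Traf3 also in 3 of 6 fits with a replicate left out (HC control 1, HC control 2 or HC gentamicin 1). Other members of these enzyme complexes, singled out after their values were seen, did not fall with them. Rnf31 of the linear ubiquitin complex rose from 128 ± 1.29 to 160 ± 18.6 (0.32 ± 0.08), and Sharpin was not called (0.07 ± 0.07). Ube2n, the partner of Ube2v1, rose from 108 ± 9.63 to 132 ± 6.36 (0.29 ± 0.08). The calls of Rnf31 and Ube2n were each kept in 4 of 6 fits with a replicate left out. In non-hair cells 0 of the 25 were called by limma, and 5 had an unadjusted p below 0.05. The greater response in hair cells was itself tested for Fbxw11 (0.60, adjusted p = 0.00531 by limma) and Malt1 (0.66, adjusted p = 0.00444 by limma).

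Other IkB proteins and negative regulators numbered 22, of which 4 rose and 2 fell in hair cells (median 0.13) and 0 rose and 2 fell in non-hair cells (median -0.09). By total reads the hair cell calls were 7 and 2. Nkrf, a repressor that binds some NF-kB target promoters, rose from 12.5 ± 0.891 to 25.5 ± 5.57 in hair cells (1.01 ± 0.17), and Nfkbil1, an IkB-like gene, from 17.3 ± 1.02 to 25.7 ± 1.44 (0.57 ± 0.09). Both differed from non-hair cells (adjusted p = 0.0118 and 0.00967 by limma). Trim13 rose (0.43 ± 0.12), a call lost without HC control 2 or HC gentamicin 1 or 2, and N4bp1 fell from 92.8 ± 3.99 to 57.3 ± 4.63 (-0.70 ± 0.07). Bcl3, an IkB protein that acts in the nucleus with the products of Nfkb1 and Nfkb2, was at 47.7, 34.5 and 31.5 in NHC control and 21.6, 16.9 and 17.5 in NHC gentamicin. It was lower in every treated replicate (-1.01 ± 0.21, unadjusted p = 0.000467, adjusted p = 0.0651 by limma), and was called in all 6 fits with a replicate left out. In hair cells Bcl3, singled out after its values were seen, fell from 2.50 ± 0.64 to 1.31 ± 0.143 (-0.90 ± 0.21, adjusted p = 0.00713 by limma), and the responses were not shown to differ (0.10 ± 0.29, adjusted p = 0.845 by limma). These hair cell values lay near the offset of 1, which understates the fall there and limits the comparison of the responses. Rnf11 also fell in non-hair cells (-0.28 ± 0.08, adjusted p = 0.122 by limma), a call lost without NHC control 1 or 3 or NHC gentamicin 2. Tnfaip3 (A20), an inducible brake on the pathway, was at 12.4 ± 1.14 and 15.9 ± 2.64 in hair cells (0.35 ± 0.18) and at 49.2 ± 2.72 and 44.5 ± 11.9 in non-hair cells, and met the criteria in neither.

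Of 15 receptors, 13 were lower in HC control than in NHC control and 1 was higher, Tnfrsf21 (174 ± 3.53 against 89.6 ± 7.92), where 42.1% of all genes were lower. Of 6 ligands tested, 4 were lower. In hair cells 1 of 15 was called, Ltbr, the lymphotoxin beta receptor that feeds the alternative pathway, which fell from 14.1 ± 2.46 to 8.96 ± 1.85 (-0.67 ± 0.17). Its level in NHC control was 112 ± 16.1, and the call was lost without HC control 2, with the hair cell groups fitted alone and with voom weights. In non-hair cells 1 was called, Il1r1, the interleukin 1 receptor, which fell from 29.0 ± 2.99 to 18.7 ± 3.35 (-0.64 ± 0.17, adjusted p = 0.108 by limma), a call lost without NHC control 1 or NHC gentamicin 2. Of 10 ligands, 6 had enough reads to be tested, and 1 was called downwards in each population. These were singled out after their values were seen, as both lay below the level set for naming: Tnfsf12 in hair cells (2.90 ± 0.394 to 1.91 ± 0.0864) and Tnf in non-hair cells (3.11 ± 0.473 to 2.15 ± 0.462). The former was kept in 1 of 6 fits with a replicate left out, that without HC control 3, and the latter in 2 of 6, being lost without NHC control 2 or 3 or NHC gentamicin 1 or 2. Of 13 coactivators and corepressors, 2 rose and 3 fell in hair cells (4 and 3 by total reads). Ep300 rose from 161 ± 4.60 to 215 ± 22.5 while its close relative Crebbp, also an acetyltransferase, fell from 70.7 ± 0.819 to 51.4 ± 5.33. The kinase subunits Prkaca (-0.50 ± 0.06) and Csnk2a1 (-0.38 ± 0.08) also fell. In non-hair cells the deacetylase Hdac1 rose (0.31 ± 0.08, adjusted p = 0.104 by limma), which was lost without NHC control 2.

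**Figure D4:**
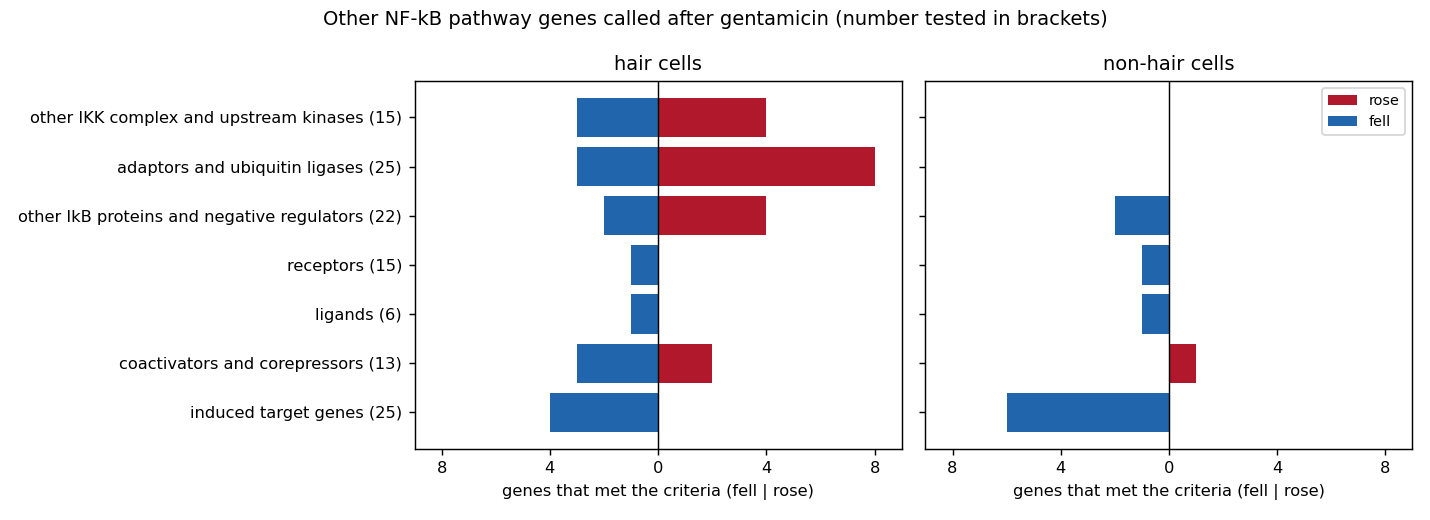
Number of genes in 7 lists of pathway genes that met the criteria in hair cells and in non-hair cells, with those that rose to the right of 0 and those that fell to the left; the number tested stands in brackets. Calls in hair cells went in both directions in 4 lists, and the induced target genes had calls only downwards in both populations, 4 and 6 of 25, where 14.8% and 2.26% of all genes were called downwards.

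Genes that NF-kB is known to induce were read last. The list holds none of the subunit, inhibitor and kinase genes above, and Tnfaip3 and Birc3 were counted in other lists. Its counts therefore depend on which targets it holds. The study names Nfkb1 and Nfkbib as NF-kB targets, and both met the criteria upwards in hair cells. From their rise it proposes that the pathway was activated, which was not tested here. The study also reports Q-PCR of Nfkb1, Nfkbib and Chuk, a pathway analysis and changes of other NF-kB targets. That evidence was not examined here. Of 28 listed, 25 were tested, and 0 rose and 4 fell in hair cells (median -0.35) while 0 rose and 6 fell in non-hair cells (median -0.24). Over all genes tested 14.8% fell in hair cells, so the count there was near the background, and 2.26% fell in non-hair cells. At an unadjusted p below 0.05 by limma, 1 was higher and 7 lower in hair cells, and 0 and 9 in non-hair cells. The share of all genes at that threshold is not given here, so these counts have no background. With voom weights 0 were called upwards in either population and 2 and 8 downwards. With scaling by total reads 1 rose in hair cells, and with the adjusted p as the threshold none of the 25 was called in non-hair cells. Ier3, an early response gene, was at 17.9, 26.5 and 25.1 in HC control and 11.02, 7.36 and 7.81 in HC gentamicin. Its fall there (-1.41 ± 0.19, adjusted p = 0.000383 by limma) stood beside 327, 288 and 249 in NHC control and 130, 139 and 177 in NHC gentamicin (-0.96 ± 0.19, adjusted p = 0.0623 by limma). No replicate overlapped in either population, and both calls were kept in all 6 fits with a replicate left out.

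The other falls in non-hair cells included chemokines. Cxcl10 was at 146, 50.1 and 81.3 in NHC control and 40.9, 28.0 and 45.3 in NHC gentamicin, Ccl2 at 35.3, 21.1 and 51.0 and then 13.8, 14.5 and 22.8, and Cxcl1 at 40.2 ± 13.3 and 21.6 ± 7.69. The log2 changes were -1.17 ± 0.35, -1.02 ± 0.28 and -0.90 ± 0.27. Spread between the controls was wide, Ccl2 and Cxcl1 overlapped between the groups, and each of these calls was kept in 2 of 6 fits with a replicate left out, being lost without NHC control 1 or 3 or NHC gentamicin 1 or 2. All were also lost with an offset of 0.1 and with the non-hair cell groups fitted alone, and that of Cxcl10 with the replicate number as a block. In hair cells their levels were near the offset, at 2.65 ± 0.938 or less. The macrophage markers summed to 56.5 to 102 in NHC control and 66.1 to 94.6 in NHC gentamicin, ranges that overlap. The endothelial sums given above were higher in every treated replicate, with only Cldn5 and Egfl7 called among those markers. Icam1 was at 61.0 ± 10.4 and 47.6 ± 6.31 in non-hair cells (-0.35 ± 0.26), Birc3 at 17.5 ± 2.67 and 13.9 ± 1.90 (-0.33 ± 0.17), and Sod2, the mitochondrial superoxide dismutase, at 80.6 ± 11.4 and 74.9 ± 9.34 (-0.10 ± 0.11). In hair cells Sod2 was at 93.3 ± 7.16 and 78.0 ± 4.13 (-0.26 ± 0.11, adjusted p = 0.105 by limma).

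Of the 25 targets, 23 were lower in HC control than in NHC control, against the 42.1% of all genes given above. The targets other than Ier3 that fell in hair cells, Csf1, Irf1 and Nos2, had levels of at most 3.29 there and 10.1 to 67.1 in NHC control. Ier3 itself stood at 23.2 ± 4.66 in HC control against 288 ± 38.9 in NHC control. The summed markers of mesenchymal, supporting, endothelial and Schwann cells were lower in the same treated hair cell replicates. Their part in these 4 falls was not tested. The call of Csf1 was kept in all 6 fits with a replicate left out and lost with voom weights, that of Irf1 in 2 (those without HC control 1 or 3) and that of Nos2 in none. Counts for the list in hair cells went down to 2 without HC control 2 or any 1 of the treated replicates.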

How the data were processed

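Sorted hair cells and non-hair cells with and without gentamicin were sequenced in 3 replicates each, as single-end reads of 50 bases. Per the study's methods, the authors aligned reads with TopHat 2 to mm10 in PartekFlow. The deposited score of each gene was tested on the files: it was the read number times a factor of each replicate plus 1, with no division by gene length, although the study's methods describe a score scaled by total reads and gene length (RPKM). Of values up to 1 above the offset, 75.7% to 77.1% were whole reads (tolerance 0.02), so no count test was run. The tested genes held 100 or more recovered reads summed over 12 replicates (tolerance 0.01 for rounding, set after seeing the data), and the test was limma 3.58.1 (R 4.3.3) with a trend, on log2 of the deposited score and 4 groups in 1 model, with Benjamini-Hochberg adjustment. Fold changes are on this scale with its offset of 1 and understate those of low genes. Gene and transcript lengths and positions came from GENCODE M21 (GRCm38). Lists, members and naming rule (per list, population and direction, the 3 largest called changes with a mean score of at least 5) were chosen with earlier results of these data known, and some genes that the rules for naming select are not reported here. Alternatives were TMM scaling, scaling by total reads, 0.1 as the offset, another read minimum (1000, or none), a replicate block, the compared groups alone, voom weights, the other threshold and leaving out each replicate. Replicate numbers stand in the column headers. Between HC control and NHC control, deviations of same-numbered replicates correlated at 0.2 to 0.316 and those of differently numbered ones at -0.27 to -0.055. The main fit used no pairing, and the replicate block was run as an alternative. That block joined all 4 groups by replicate number, treated and untreated. It therefore did not model pairs of hair cells and non-hair cells alone. Replicates are biological per the methods, and which lane held which library is not given in the sources used here.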

Additional observations from a re-analysis of the deposited data

Results flagged for a closer look

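The response to gentamicin differed between hair cells and non-hair cells for Nfkb1, by 0.52 ± 0.12 on the log2 scale (adjusted p = 0.0183 by limma). Hair cells showed a change of 0.57 ± 0.09 and non-hair cells one of 0.05 ± 0.09, and all 3 treated hair cell replicates lay above all 3 controls. Over the alternatives the adjusted p by limma was 0.00754 to 0.0487.

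For Nfkbib the responses differed in the main analysis by 0.48 ± 0.14 (adjusted p = 0.0407 by limma), with 0.56 ± 0.10 in hair cells and 0.08 ± 0.10 in non-hair cells. This call was less stable, being kept in 3 of 12 fits with a replicate left out. It was also lost with TMM scaling, with voom weights and with the replicate number as a block. Over the alternatives the adjusted p by limma was 0.0219 to 0.0918.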

How the results depend on the processing

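In hair cells 5 of the 10 genes were called, and 4 to 6 under the alternatives that kept all replicates. With 1 replicate left out, 3 to 4 were called. In non-hair cells 1 was called in the main analysis, 2 with scaling by total reads, 0 with the compared groups alone, 0 at an adjusted p below 0.05 and 0 to 2 with 1 replicate left out. For the difference between the responses, 2 were called in the main analysis, 1 with TMM scaling, 1 with voom weights, 1 with the replicate number as a block, 3 with scaling by total reads and 1 to 3 with 1 replicate left out. Between the untreated populations 8 were called, and 7 to 9 under the alternatives. The cause of these shifts was not tested. Signs turned for values within their error: Nfkbie in hair cells (-0.08 to 0.18 with 1 replicate left out), Rela in non-hair cells (-0.08 to 0.03), the difference between the Rel responses (-0.02 to 0.15), and Ikbkb between the untreated populations with scaling by total reads (-0.00038). The other member changes kept their direction.

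Same-numbered replicates deviated together at 0.0367, 0.0522 and 0.0369 in hair cells and at 0.208, -0.232 and 0.683 in non-hair cells, so the numbers were not taken as pairs there. The block changed the call of Nfkbib in the difference of responses and no other member call. The edgeR alternative was not run, because too few values gave whole reads. Depth limits Rel most, with 96 reads over the HC control replicates.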

Other observations

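As a description of levels over the 12 replicates, with points that share the split into hair cells and non-hair cells and so favour genes with that split, the gene closest to Chuk was Rrn3 (Pearson r = 0.996), followed by BC026590 (0.996), Lig4, Dnaja2 and Rmdn3 (0.995 each). Closest to Nfkbib were Pip5k1a and Ascc3 (0.988 each), and Eftud1, Ankrd17 and Dyrk1a (0.987 each). For Nfkbia they were Sprr1a (0.972), Ppp1r2 (0.970), Zfp444 (0.966), Gpihbp1 (0.964) and 8430408G22Rik (0.963). For Nfkb1, whose pattern followed the split less, the closest included Tcap (0.972), Ppp2r2d (0.958), Zfp655 (0.951) and Rep15 (0.946).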
